A study of Mus musculus with 6 samples.

Results

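The p53 targets and apoptosis regulators are 37 genes picked by symbol from a table of 55573 genes. They comprise p53 itself (Trp53) with its controllers, members of the BCL2 family, caspases, death receptors, and p53 targets for cell cycle arrest, stress responses and DNA repair. Each symbol occurred once in the table, and 36 of the 37 passed the filter on low counts. The remaining gene, Bik, a death-promoting BH3-only gene, had between 0 and 15 expected counts per library and was not tested.

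RNA was sequenced from LSK cells, the bone marrow cells that lack lineage markers and carry Sca-1 and c-Kit, which include the blood stem cells and early progenitors. The 3 mutant libraries came from C57BL/6J mice carrying Etv6 R355X/+, which the genotype field writes as Etv6+/-. The 3 wild-type libraries came from C57BL/6J mice of genotype Etv6+/+. All mice were 3 months old, no treatment is named in the labels, and no Cre driver is named. Etv6 encodes an ETS-family transcriptional repressor, and the series title poses the question of inflammatory genes and stem and progenitor cell function under stress. Whether each library was a separate animal is not stated, and p-values therefore reflect how far these libraries differ within a genotype, which could be technical variation alone.

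The p53 protein is a transcription factor that is held low by Mdm2 and restrained by Mdm4, and it is stabilised when DNA is damaged. It then switches on genes that stop the cell cycle, repair DNA or start apoptosis. Apoptosis through mitochondria is decided by the BCL2 family. Pro-survival members such as Bcl2, Bcl2l1 and Mcl1 restrain the pore-forming proteins Bax and Bak1, and BH3-only proteins such as Bbc3, Pmaip1 and Bcl2l11 release them. Hematopoietic stem cells are known to depend on Mcl1 and to be sensitive to p53 activity.

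Mutant libraries held 45.2 M to 92.2 M expected counts (M, mega) and wild-type libraries 47.9 M to 60.8 M. Mutant replicate 1 was the deepest and had the highest share of nuclear ribosomal RNA, 8.61% against 6.30% to 7.19% in the other libraries. Etv6 measured 305, 341 and 386 CPM (counts scaled to the TMM-adjusted library size) in the mutant libraries, against 454, 419 and 400 CPM in the wild-type libraries. Each mutant library was under each wild-type library, but the log2 fold change of -0.30 did not pass (edgeR adjusted p = 0.245). Etv6 did pass at 0.05 with DESeq2 (adjusted p = 0.0491) and with edgeR without a count filter (adjusted p = 0.0111). A stop codon allele need not alter RNA level, so this check of the labels is a weak one, and Gm17089 overlaps exon bases of Etv6 on the opposite strand. The LSK markers Kit, at 351 to 393 CPM in the mutant and 385 to 451 CPM in wild type, and Ly6a, which encodes Sca-1, at 75.9 to 81.3 CPM in the mutant and 71.7 to 93.5 CPM in wild type, were high in every library. These are bulk libraries, in which fewer cells of a type and less RNA per cell cannot be told apart.

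At an adjusted p of 0.05, none of the 36 members was called by the quasi-likelihood test of edgeR, with p adjusted by the method of Benjamini and Hochberg over all tested genes. Sesn1, a stress-induced p53 target that restrains growth signalling, came closest. It was 1.49-fold higher in the mutant (adjusted p = 0.0688). The arrest genes Cdkn1a and Gadd45a were next, with opposite directions, and the BCL2 family, the caspases and p53 itself showed differences of small size or of low precision. The background share of calls was 0.266% (55 of 20646 genes), or 0.189% for genes higher in the mutant and 0.0775% for genes lower. An unadjusted p under 0.05 was found for 3 of the 36 tested members, 8.33%, against 10.6% of all tested genes. Of these, 2 were higher in the mutant, where the background share was 5.83%, and 1 was lower, where it was 4.8%. With DESeq2, 1 member was called, Sesn1, against a background of 1.64%, and with limma-voom 0 were called, against 0.199%.

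The median log2 fold change of the 36 members was 0.044, against 0.0019 over all tested genes. Their median absolute log2 fold change was 0.10, against 0.14 over all tested genes. The fold changes ran from -0.38 for Gadd45a to 0.63 for Perp. A 95% interval lying wholly within a 1.5-fold difference in either direction was found for 22 of the 36 members, 61.1%, against 54.2% of all tested genes. The genotypes did not overlap for 5 members (background 16.3%), of which 3 were higher in the mutant (background 8.45%) and 2 lower (background 7.84%).

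**Figure D1:**
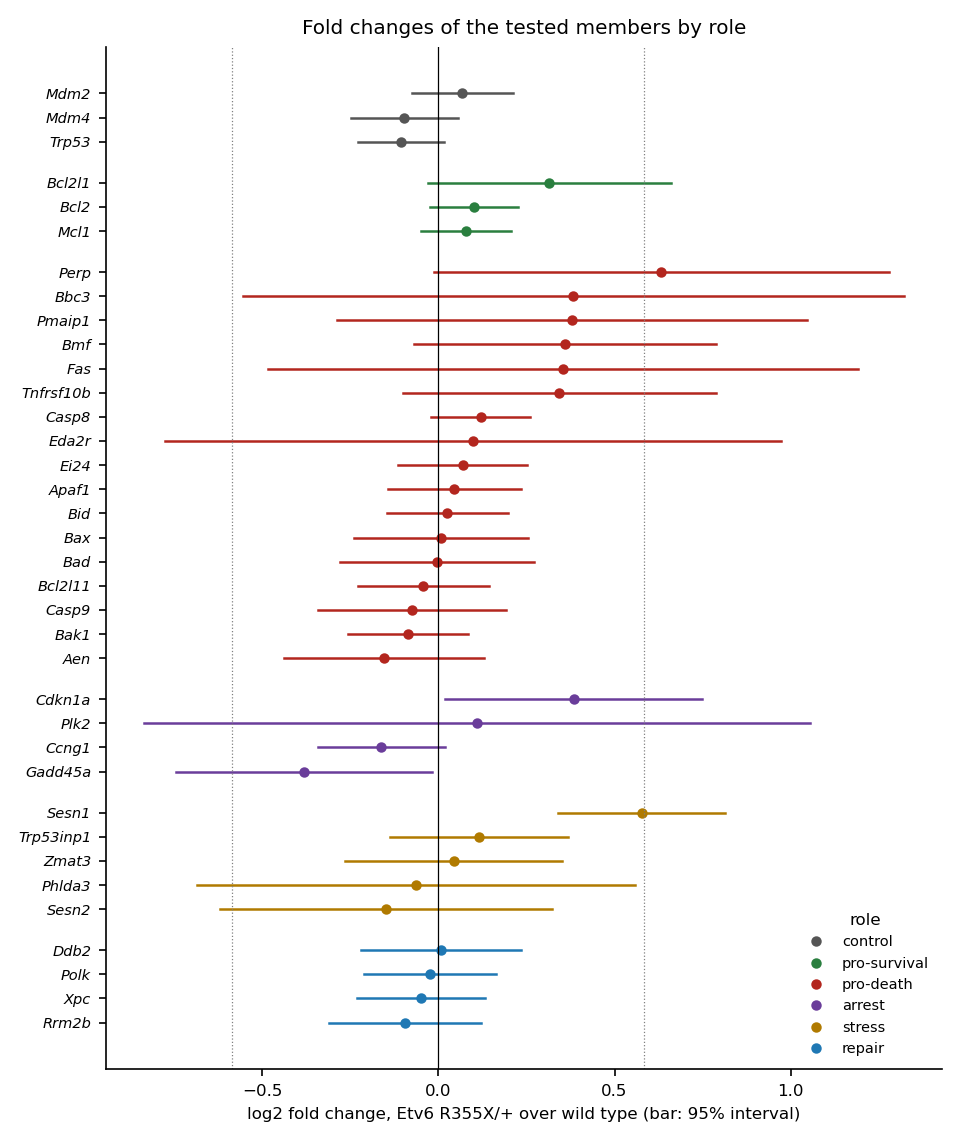
Log2 fold change of Etv6 R355X/+ over wild type (horizontal axis) for the 36 tested members, grouped by role, with 95% intervals as bars and dotted lines at a 1.5-fold difference. Sesn1, Cdkn1a and Gadd45a have intervals that leave out 0, and 22 of the intervals lie between the dotted lines.

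Transcripts of p53 and its controllers were abundant and differed little between genotypes. Trp53, on chromosome 11 from 69580359 to 69591873 in mm10, measured 171, 175 and 171 CPM in mutant libraries, against 183, 180 and 192 CPM in wild-type libraries. The mutant values were the 3 lowest, and the groups did not overlap. The log2 fold change was -0.11 with a 95% interval from -0.23 to 0.02 (edgeR adjusted p = 0.547). Mdm2, the ubiquitin ligase that targets p53 for destruction and is itself a p53 target, measured 90.2, 92.7 and 102 CPM in the mutant and 93.7, 89.2 and 89.0 CPM in wild type. Its groups overlapped, with a log2 fold change of 0.07 and an interval from -0.08 to 0.21 (edgeR adjusted p = 0.762). Mdm4, a relative of Mdm2 that masks the activation domain of p53, measured 391, 450 and 447 CPM in the mutant and 442.5, 475 and 460 CPM in wild type (log2 fold change -0.10, edgeR adjusted p = 0.664). Mutant replicate 1 was the lowest of the 6 libraries for Mdm4, and the groups overlapped.

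All 3 pro-survival members had fold changes above 0, and none passed. Bcl2, an anchor protein of the mitochondrial membrane that blocks pore formation, measured 191, 193 and 207 CPM in mutant libraries, against 183, 184 and 185 CPM in wild-type libraries. The genotypes did not overlap, but the difference was small, with a log2 fold change of 0.10 and an interval from -0.02 to 0.23 (edgeR adjusted p = 0.582). Mcl1, a short-lived pro-survival protein, measured 211, 217 and 224 CPM in the mutant and 211, 209 and 197 CPM in wild type. These values touched, as mutant replicate 1 lay just under wild-type replicate 1, and the log2 fold change was 0.08 (interval -0.05 to 0.21, edgeR adjusted p = 0.682). Bcl2l1, which encodes Bcl-xL, a survival factor of erythroid cells and platelets, measured 9.86, 9.17 and 8.44 CPM in the mutant and 6.13, 7.29 and 8.70 CPM in wild type. Its log2 fold change was 0.31 with an interval from -0.03 to 0.66 (edgeR adjusted p = 0.520), and wild-type replicate 3 lay above mutant replicate 3. Without wild-type replicate 1 it was 0.20.

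Per length, Mcl1 had the highest level of the 3 pro-survival members, at 63.5 ± 1.9 RPKM in the mutant and 60.2 ± 2.2 RPKM in wild type (SD, n = 3 each). RPKM here is the CPM value divided by the exon length in kilobases. Bcl2 followed at 21.5 ± 0.95 RPKM in the mutant and 20.1 ± 0.081 RPKM in wild type, and Bcl2l1 at 2.00 ± 0.15 RPKM in the mutant and 1.61 ± 0.28 RPKM in wild type. The order Mcl1, Bcl2, Bcl2l1 held in both genotypes, with gaps wider than the spread between libraries.

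None of the 17 tested pro-death members passed or had an unadjusted p under 0.05. Of the pore formers, Bax measured 16.1, 15.3 and 16.2 CPM in the mutant against 14.2, 17.8 and 15.4 CPM in wild type, and Bak1 41.0, 37.5 and 38.7 CPM in the mutant against 39.6, 39.8 and 45.05 CPM in wild type. Both groups overlapped, with log2 fold changes of 0.0072 for Bax (interval -0.24 to 0.25) and -0.09 for Bak1 (interval -0.26 to 0.08). Adjusted p was 0.993 and 0.745 in edgeR's test. Exons of Bak1, Bad, Bid, Bcl2, Casp9, Cdkn1a, Gadd45a and Ei24 overlap exons of neighbours on the opposite strand, and counts made without strand cannot separate these reads. Bax shares exon bases with Gm45808 on its own strand.

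Among the BH3-only genes, the p53 targets were sparse. Bbc3, which encodes Puma, the main p53-induced killer in lymphoid cells, measured 1.33, 0.748 and 0.691 CPM in the mutant and 1.04, 0.717 and 0.369 CPM in wild type. The highest value was that of mutant replicate 1, and the interval of its log2 fold change of 0.38 ran from -0.56 to 1.32 (edgeR adjusted p = 0.799), so depth limits what can be said. Without mutant replicate 1 the log2 fold change was 0.0091. Pmaip1, which encodes Noxa, an antagonist of Mcl1, measured 1.10, 1.57 and 1.58 CPM in the mutant and 0.783, 1.06 and 1.42 CPM in wild type (log2 fold change 0.38, interval -0.29 to 1.05, edgeR adjusted p = 0.707). Its log2 fold change was 0.19 without wild-type replicate 1 and 0.61 without wild-type replicate 3. Bcl2l11, which encodes Bim and is known to respond to loss of cytokine signals, was well covered at 29.8, 31.9 and 33.5 CPM in the mutant and 33.8, 34.1 and 30.1 CPM in wild type. Its groups overlapped and its interval was narrow, from -0.23 to 0.14 around -0.04 (edgeR adjusted p = 0.905).

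The other BH3-only genes were Bid, the link from death receptors to mitochondria, Bad, which is switched off by growth factor signals, and Bmf, which is released from the cytoskeleton under stress. Bid averaged 34.98 ± 2.25 CPM in the mutant and 34.4 ± 1.30 CPM in wild type, and Bad 13.1 ± 1.38 CPM in the mutant and 13.2 ± 1.19 CPM in wild type (SD, n = 3 each). Bmf had 3.02, 2.44 and 3.05 CPM in the mutant against 2.35, 2.17 and 2.11 CPM in wild type. It was the pro-death gene whose genotypes did not overlap, with a log2 fold change of 0.36 (interval -0.07 to 0.79, edgeR adjusted p = 0.561).

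Casp8, the initiator caspase of death receptors, was the most abundant pro-death member per length. It averaged 45.5 ± 1.6 RPKM in the mutant and 41.9 ± 2.5 RPKM in wild type, next to 42.6 ± 0.60 RPKM in the mutant and 45.8 ± 1.5 RPKM in wild type for Trp53. Casp8 measured 132, 127 and 136 CPM in the mutant against 129, 120 and 114 CPM in wild type, with overlap and a log2 fold change of 0.12 (edgeR adjusted p = 0.553). The mitochondrial branch was lower. Apaf1, the scaffold of the apoptosome, averaged 5.93 ± 0.24 RPKM in the mutant and 5.75 ± 0.67 RPKM in wild type, and Casp9, the caspase it activates, 2.43 ± 0.29 RPKM in the mutant and 2.56 ± 0.067 RPKM in wild type. Neither passed (log2 fold changes 0.05 and -0.08).

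Of the death receptors, Fas and Eda2r were near the lower limit of these data. Fas, the receptor for Fas ligand, averaged 0.762 ± 0.279 CPM in the mutant and 0.605 ± 0.134 CPM in wild type, and Eda2r, an ectodysplasin receptor and p53 target, 0.430 ± 0.062 CPM in the mutant and 0.401 ± 0.0452 CPM in wild type. Tnfrsf10b, the mouse TRAIL receptor, averaged 6.62 ± 1.77 CPM in the mutant and 5.21 ± 0.417 CPM in wild type. All 3 fold changes were above 0, at 0.35, 0.10 and 0.34 on the log2 scale, with intervals that each included 0. None of the other death-promoting p53 targets passed. Perp, a membrane protein of desmosomes, measured 1.498, 1.04 and 1.45 CPM in the mutant and 0.750, 0.758 and 1.07 CPM in wild type. Only mutant replicate 2 lay under the highest wild-type value. Perp had the highest fold change among the members, 0.63, yet an interval from -0.01 to 1.28 (edgeR unadjusted p = 0.0541, adjusted p = 0.483). The nuclease gene Aen had a log2 fold change of -0.16 and the endoplasmic reticulum gene Ei24 of 0.07.

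**Figure D2:**
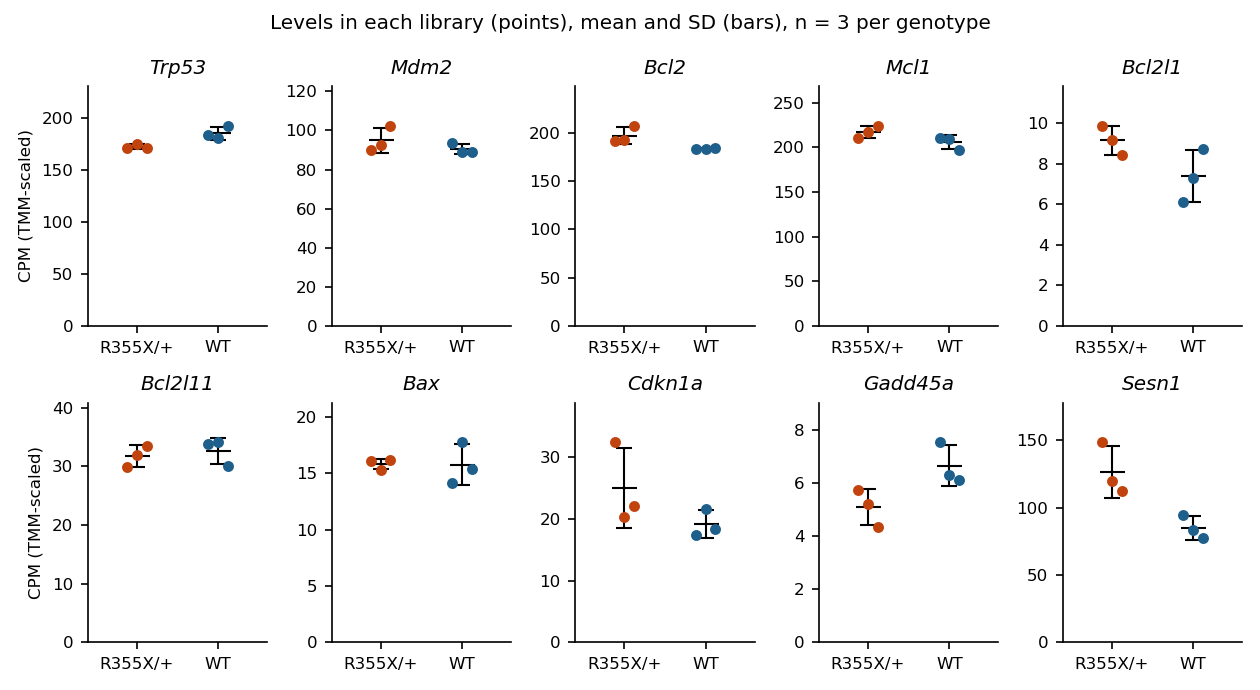
CPM in each library (points) with mean and SD (bars) for 10 members, Etv6 R355X/+ left and wild type (WT) right, n = 3 per genotype, each axis starting at 0. Sesn1 is higher in all mutant libraries, at 112 CPM or more against 94.3 CPM or less in wild type, Gadd45a is lower in all mutant libraries, and 1 mutant library sets the Cdkn1a mean apart.

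None of the 4 arrest members passed, and the fold changes of Cdkn1a and Gadd45a had opposite signs. Cdkn1a, which encodes p21, the inhibitor of cyclin-dependent kinases through which p53 stops the cycle, measured 32.3, 20.3 and 22.1 CPM in mutant libraries, against 17.4, 21.6 and 18.4 CPM in wild-type libraries. Mutant replicate 1 stood above the rest, and the other mutant values overlapped wild type. The log2 fold change was 0.38 (SE 0.165, unadjusted p = 0.0406, edgeR adjusted p = 0.447), and it was 0.15 without mutant replicate 1. Gadd45a, a p53 target that acts in growth arrest and repair, measured 5.73, 5.22 and 4.37 CPM in the mutant and 7.54, 6.33 and 6.12 CPM in wild type. No mutant library reached the lowest wild-type library, with a log2 fold change of -0.38 (SE 0.165, unadjusted p = 0.0417, edgeR adjusted p = 0.451). For Gadd45a and Sesn1 the exact two-sided permutation p was 0.1, the smallest that 3 against 3 allows, and for Cdkn1a it was 0.2. Ccng1, a cyclin that feeds back on p53, averaged 79.4 ± 8.29 CPM in the mutant and 88.9 ± 5.44 CPM in wild type (log2 fold change -0.16, edgeR adjusted p = 0.527). Plk2, a polo-like kinase, averaged 1.06 ± 0.598 CPM in the mutant and 0.970 ± 0.351 CPM in wild type.

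A p53 decamer, the half-site of the p53 consensus, was searched for on both strands of RefSeq promoter windows (build GRCm38.p6, 250 bases before to 50 after each annotated start). The same windows were searched for CCGGAA, the core bound by many ETS factors, and for TGTTTAC, a core bound by FOXO factors. They are shown for the members with an unadjusted p under 0.05, which were 8.33% of those tested against 10.6% of all tested genes. Capitals mark matches to the p53 decamer, CCGGAA or TGTTTAC. The windows are chr17:29090729-29091028 on the plus strand for Cdkn1a (upstream start) and chr6:67037358-67037657 on the minus strand for Gadd45a.
Cdkn1a upstream start: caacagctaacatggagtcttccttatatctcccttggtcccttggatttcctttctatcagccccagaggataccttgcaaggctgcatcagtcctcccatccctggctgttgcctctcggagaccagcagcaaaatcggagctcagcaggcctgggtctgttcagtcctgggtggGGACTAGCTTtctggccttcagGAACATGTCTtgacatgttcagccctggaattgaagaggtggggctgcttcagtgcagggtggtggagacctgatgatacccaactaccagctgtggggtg
Gadd45a: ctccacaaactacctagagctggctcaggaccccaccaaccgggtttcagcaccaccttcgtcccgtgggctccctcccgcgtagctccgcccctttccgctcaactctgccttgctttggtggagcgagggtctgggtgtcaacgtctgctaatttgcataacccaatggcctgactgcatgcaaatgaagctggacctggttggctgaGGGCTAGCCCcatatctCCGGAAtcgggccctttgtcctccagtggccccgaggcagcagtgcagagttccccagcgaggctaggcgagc
In the Cdkn1a window the p53 decamers GGACTAGCTT and GAACATGTCT begin at positions -73 and -51 relative to the start. The downstream Cdkn1a start had no match. In the Gadd45a window the decamer GGGCTAGCCC begins at position -40 and CCGGAA at position -23. The matches do not overlap.

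Sesn1 had the smallest p among the members. It lies on chromosome 10 from 41809935 to 41908424 in mm10 (plus strand, ENSMUSG00000038332.13) and encodes sestrin 1, which inhibits the growth kinase complex mTORC1 and is induced by p53 and by FOXO factors. Sesn1 measured 148, 120 and 112 CPM in mutant libraries, against 94.3, 83.4 and 77.1 CPM in wild-type libraries. Every mutant value exceeded every wild-type value, and mutant replicate 1 was the highest. The log2 fold change was 0.58 (SE 0.107, 95% interval 0.34 to 0.81, unadjusted p = 0.000247, edgeR adjusted p = 0.0688). Leaving out mutant replicate 1 gave 0.45, and leaving out wild-type replicate 3 as well gave 0.38 (chosen once the values were known). Adjusted p with a single library left out ran from 0.0409 to 0.277. Leaving out mutant replicate 3 brought Sesn1 past the threshold, as did DESeq2 (adjusted p = 2.82e-05) and edgeR without a count filter (adjusted p = 9.40e-07).

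Sesn1 has a pair of annotated starts in RefSeq, and gene-level counts pool transcripts from both. Their windows are chr10:41810324-41810623 and chr10:41887189-41887488, both on the plus strand, with capitals as above.
Sesn1 upstream start: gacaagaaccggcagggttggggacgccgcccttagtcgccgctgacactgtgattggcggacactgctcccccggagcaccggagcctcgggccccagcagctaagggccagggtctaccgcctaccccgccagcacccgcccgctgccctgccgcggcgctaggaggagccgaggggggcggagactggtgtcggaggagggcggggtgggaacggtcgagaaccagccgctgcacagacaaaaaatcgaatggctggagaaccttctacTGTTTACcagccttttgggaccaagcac
Sesn1 downstream start: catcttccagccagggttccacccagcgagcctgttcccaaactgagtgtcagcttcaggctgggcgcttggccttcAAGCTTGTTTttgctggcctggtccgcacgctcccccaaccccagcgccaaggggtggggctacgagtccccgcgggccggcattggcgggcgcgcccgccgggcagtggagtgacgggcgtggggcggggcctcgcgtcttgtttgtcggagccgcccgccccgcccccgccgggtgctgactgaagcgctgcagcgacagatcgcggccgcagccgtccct
TGTTTAC begins at position 22 relative to the upstream start, and a p53 decamer, AAGCTTGTTT, at position -173 relative to the downstream start. Neither window held CCGGAA. RefSeq windows matched 28 of the 37 members, in 41 windows. A p53 decamer was in 12 of these 41, 29.3%, against 8.36% of 32851 promoters of the same length. CCGGAA was in 19.5% against 14.9%, and TGTTTAC in 12.2% against 3.65%. Many members were picked because they are known p53 targets, so the p53 share cannot test for a surplus of p53 sites. Windows of the same gene were counted separately and are not independent. Both Aen windows overlap and hold the same p53 decamer, GGGCTTGTCC, which was therefore counted in each. A match describes letters and does not show binding.

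The relatives of Sesn1 had overlapping genotypes. Sesn2, the sestrin induced by amino acid and oxidative stress, measured 2.49, 3.97 and 3.28 CPM in the mutant and 3.52, 3.15 and 4.08 CPM in wild type (log2 fold change -0.15, edgeR adjusted p = 0.858). Sesn3, which is outside the 37 and was chosen after its values were seen, measured 81.4, 91.3 and 89.1 CPM in the mutant and 90.3, 89.5 and 79.9 CPM in wild type (log2 fold change 0.01, edgeR adjusted p = 0.977). No test of the difference between these genes was made. In the same role, Trp53inp1, an inducer of autophagy and death, averaged 54.3 ± 2.54 CPM in the mutant and 50.1 ± 9.34 CPM in wild type. Zmat3, an RNA-binding p53 target, averaged 12.6 ± 1.12 CPM in the mutant and 12.2 ± 1.95 CPM in wild type, and Phlda3, a repressor of Akt, 0.980 ± 0.147 CPM in the mutant and 1.02 ± 0.128 CPM in wild type (SD, n = 3 each). None of these passed.

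The DNA repair targets differed little between genotypes. Polk, a translesion polymerase, averaged 21.6 ± 0.415 CPM in the mutant and 22.0 ± 0.648 CPM in wild type. Ddb2, which recognises ultraviolet lesions, averaged 18.9 ± 0.374 CPM in the mutant and 18.8 ± 1.89 CPM in wild type, and Xpc, its partner in lesion recognition, 64.3 ± 3.34 CPM in the mutant and 66.5 ± 6.90 CPM in wild type. Rrm2b, the p53-induced ribonucleotide reductase subunit, averaged 19.6 ± 0.650 CPM in the mutant and 20.9 ± 1.78 CPM in wild type. Their log2 fold changes ran from -0.10 to 0.0078, and all 4 intervals lay within 1.5-fold. Ddb2 and Rrm2b share exon bases with genes on the opposite strand.

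Grouped by what they do to a cell, the members had these medians. The median log2 fold change was 0.10 for the 3 pro-survival members, 0.07 for the 17 tested pro-death members and -0.03 for the 4 arrest members. Among the pro-death members, the 3 death receptors had a median of 0.34 and the 6 tested BH3-only genes of 0.19, and none of either passed. Fold changes above 0 were found for 3 of 3, 12 of 17 and 2 of 4 of them, against 50.6% of all tested genes. The summed pro-survival level was 84.7, 86.5 and 90.0 RPKM in mutant libraries, against 83.0, 82.9 and 79.7 RPKM in wild-type libraries, so that all mutant libraries were higher by a small margin. The summed pro-death level was 116, 111 and 118 RPKM in the mutant and 111, 111 and 111 RPKM in wild type, and the groups overlapped. The ratio of the summed levels, pro-survival over pro-death, was 0.731, 0.781 and 0.764 in the mutant and 0.749, 0.748 and 0.717 in wild type, with overlap. Arrest genes summed to 34.0, 34.4 and 29.9 RPKM in the mutant and 33.0, 36.0 and 35.1 RPKM in wild type, again with overlap. For p53 and its controllers the sum was 86.4, 91.9 and 92.5 RPKM in the mutant and 93.6, 94.3 and 96.1 RPKM in wild type, without overlap. These sums follow their most abundant members, Mcl1, Casp8 and Ccng1, and have no test.

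**Figure D3:**
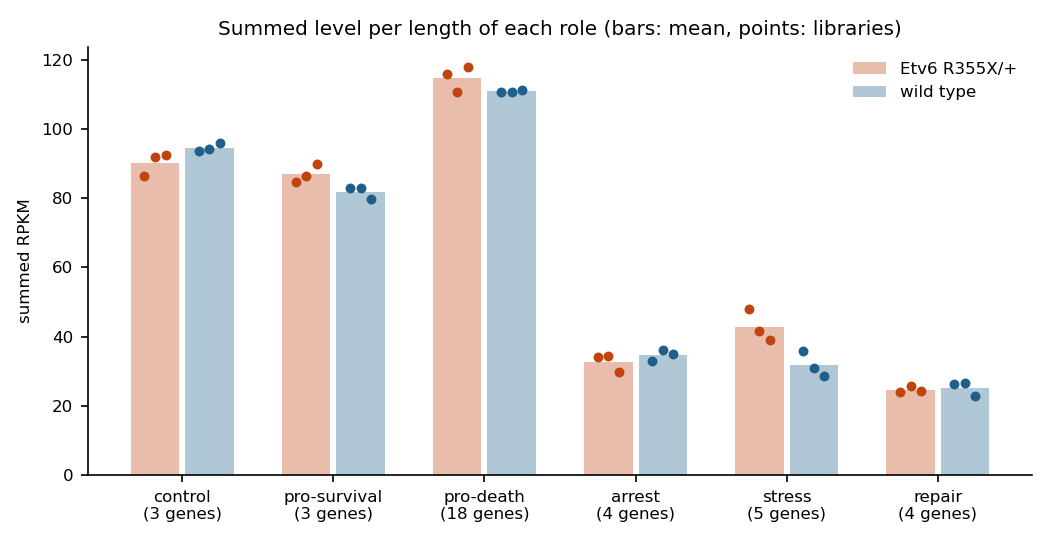
Summed RPKM of the members of each role (bars: mean, points: libraries), Etv6 R355X/+ left of wild type. Pro-survival and stress genes are higher in every mutant library than in every wild-type library, the stress difference resting mostly on Sesn1, p53 and its controllers are lower in every mutant library, and pro-death, arrest and repair genes overlap.

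Other genes of these pathways were taken from a list of 72, of which 63 were tested. In the edgeR test 0 passed, while 11 had an unadjusted p under 0.05, 17.5% against the background of 10.6%. Of these, 8 were higher (background 5.83%) and 3 lower (background 4.8%). DESeq2 called 2, the D-type cyclin genes Ccnd1 and Ccnd2, and limma-voom 0. The D-type cyclins drive entry into the cell cycle, and these had opposite directions. Ccnd1 measured 55.9, 58.05 and 60.2 CPM in the mutant and 42.7, 47.0 and 35.7 CPM in wild type (log2 fold change 0.47, edgeR adjusted p = 0.0926). Ccnd2 measured 170, 194 and 197 CPM in the mutant and 229, 243 and 218 CPM in wild type (log2 fold change -0.30, edgeR adjusted p = 0.170). Neither gene had overlapping groups.

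Among the apoptosis genes of that list, Casp1, the inflammatory caspase that matures interleukin-1 beta, measured 53.3, 48.6 and 45.2 CPM in the mutant and 42.3, 42.0 and 39.4 CPM in wild type, without overlap (log2 fold change 0.25, edgeR adjusted p = 0.283). Bok, a relative of Bax, averaged 2.81 ± 0.843 CPM in the mutant and 1.69 ± 0.532 CPM in wild type, and Bcl2l14 2.76 ± 0.231 CPM in the mutant and 1.66 ± 0.527 CPM in wild type (log2 fold changes 0.74 for Bok and 0.73 for Bcl2l14, edgeR adjusted p = 0.411 and 0.354). For Bok it was 0.48 without mutant replicate 1. Bcl2l13, a mitochondrial relative whose exons overlap those of Bid on the other strand, averaged 47.3 ± 2.53 CPM in the mutant and 53.5 ± 4.07 CPM in wild type (log2 fold change -0.18). Atr, the kinase that signals stalled replication to p53, averaged 104 ± 4.25 CPM in the mutant and 117 ± 1.54 CPM in wild type (log2 fold change -0.18, edgeR adjusted p = 0.316). The cell cycle inhibitor Cdkn1b, which encodes p27, averaged 47.4 ± 2.65 CPM in the mutant and 40.4 ± 4.78 CPM in wild type (log2 fold change 0.23, edgeR adjusted p = 0.413). The 14 caspase regulators and adaptors, Xiap and Cflar among them, had log2 fold changes from -0.16 to 0.26 and intervals within 1.5-fold in all 14.

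Among markers of other cells, 4 passed the edgeR test, all higher in the mutant and without overlap between genotypes. They were the adult beta globin genes Hbb-bt (4.34-fold, edgeR adjusted p = 0.00213) and Hbb-bs (2.39-fold, edgeR adjusted p = 0.0312), the natural killer cell receptor gene Klrb1c (3.54-fold, edgeR adjusted p = 0.0177) and the mast cell and basophil receptor gene Fcer1a (4.97-fold, edgeR adjusted p = 0.00522). An unadjusted p under 0.05 was found for 10.6% of all tested genes, 5.83% higher and 4.8% lower. B cell markers had such a p in 8 of 10 genes, all higher in the mutant, with 0 past the threshold. For 6 of the 10 every mutant library exceeded every wild-type library (background 8.45%). They summed to 4131 to 4458 CPM in the mutant and 2627 to 4199 CPM in wild type, with overlap. Most of this sum came from Ighm (mean 2282 CPM in the mutant and 1688 CPM in wild type) and Igkc (1834 CPM in the mutant and 1713 CPM in wild type). Macrophage and dendritic cell markers had such a p in 7 of the 9 tested, 6 higher and 1 lower, with 0 past the threshold and sums of 71.8 to 102 CPM in the mutant and 61.4 to 75.8 CPM in wild type. Mast cell and basophil markers had it in 5 of the 8 tested, all higher, with sums of 148 to 163 CPM in the mutant and 124 to 138 CPM in wild type. LSK markers had it in 3 of 10, all lower, with sums of 1558 to 1736 CPM in the mutant and 1545 to 1979 CPM in wild type. T and natural killer cell markers had it in 2 of 10, Klrb1c higher and Cd4 lower (log2 fold change -1.17, edgeR adjusted p = 0.132). Erythroid markers had it in 2 of 10, all higher, megakaryocyte markers in 1 of the 7 tested, higher, and neutrophil markers in 0 of 10. Sums overlapped for erythroid (156 to 316 CPM in the mutant and 111 to 244 CPM in wild type), T and natural killer (131 to 170 CPM in the mutant and 120 to 142 CPM in wild type), neutrophil (2379 to 3983 CPM in the mutant and 3062 to 3673 CPM in wild type) and megakaryocyte markers (57.8 to 82.3 CPM in the mutant and 58.0 to 92.7 CPM in wild type). No marker was at 0 in all libraries. Proliferation markers had an unadjusted p under 0.05 in 0 of 15 genes in edgeR's test and sums of 3399 to 3864 CPM in the mutant and 3145 to 3911 CPM in wild type. Mutant replicate 1, the highest library for Sesn1 and Cdkn1a, also had the highest sum of all libraries for several marker lists. These were erythroid, B cell, T and natural killer cell, macrophage and dendritic cell, and neutrophil markers. Mast cell and basophil sums were highest in mutant replicate 2, and megakaryocyte sums in wild-type replicate 3. The part of these cells in the Sesn1, Cdkn1a and Gadd45a values was not tested.

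**Figure D4:**
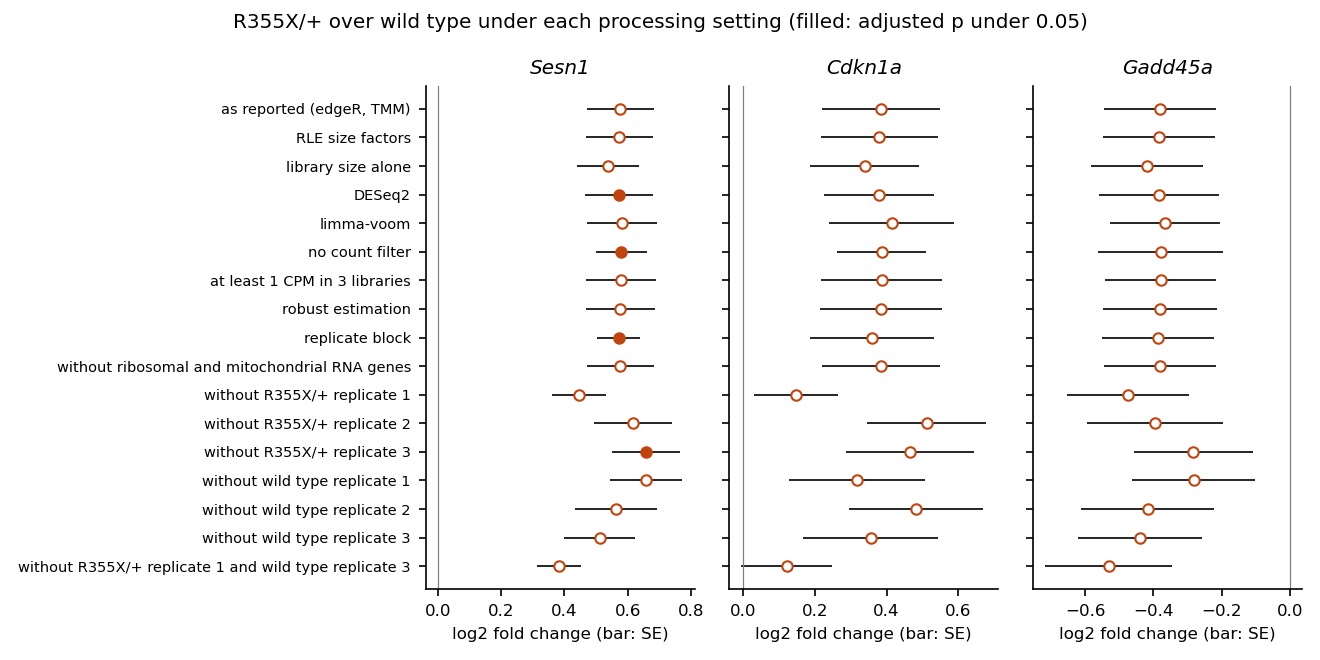
Log2 fold change (SE as bars) of Sesn1, Cdkn1a and Gadd45a, Etv6 R355X/+ over wild type, under each processing setting, with filled points where the adjusted p is under 0.05. Sesn1 keeps a value between 0.38 and 0.66 and is called in 4 settings, while Cdkn1a comes down to 0.15 or less in both settings without mutant replicate 1.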

How the data were processed

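RNA from sorted LSK cells was amplified by single-primer isothermal amplification, per the labels' protocols, in 3 Etv6 R355X/+ and 3 wild-type libraries grouped by title. The authors deposited RSEM expected counts per gene, not scaled for depth and counted without strand. Trim Galore 0.60, STAR 2.7, RSEM 1.31 and build mm10 are named in the submitters' processing notes. For the annotation release and any read filter, nothing is given in the sources used here. RSEM divides reads matching several genes among them.

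Expected counts were rounded, 92 spike-in rows at 0 were left out, genes were filtered with filterByExpr, and TMM scaling factors were applied. Genotypes were compared with the two-sided quasi-likelihood test of edgeR 4.0.16 in R 4.3.3, with no covariate, adjusted by Benjamini-Hochberg over 20646 genes at 0.05. SE was the absolute fold change over the root of F, and 95% intervals from the same fit. The permutation test used log2(CPM + 0.01). Positions and exon lengths came from GENCODE M21, matched for 55480 of 55573 rows. DESeq2 1.42.0, limma-voom 3.58.1, other scalings and filters, a replicate block and left-out libraries were alternatives. The script was tested on simulated data. Libraries of a genotype differed beyond counting noise (chi-square per gene of at least 11.2) and were each counted as a sample. This does not tell separate animals from separate preparations of 1 RNA.

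The members and lists were chosen with earlier results of these data known. Library values are given for p53 and its controllers, the main BCL2 family genes, Cdkn1a and every member with an unadjusted p under 0.05, and the 8 other pathway genes with the smallest p are named.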

Additional observations from a re-analysis of the deposited data

How the results depend on the processing

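The log2 fold changes of Sesn1, Cdkn1a, Gadd45a, Trp53, Mdm2, Mdm4, Bcl2, Bcl2l1, Mcl1, Bak1 and Pmaip1 kept their sign in all 16 settings. The count of members past the threshold was 1 (Sesn1) with DESeq2, without a count filter and with the replicate block, and 0 to 1 with a library left out, 1 without mutant replicate 3. All genes called numbered 323 with DESeq2, 527 without a count filter, 32 with the replicate block and 16 to 67 with a library left out. Other pathway genes called were 2 with DESeq2 and without a filter, and 1 with robust estimation. With both mutant replicate 1 and wild-type replicate 3 left out, chosen after seeing the data, 6 members had an unadjusted p under 0.05. The share of all tested genes with such a p is not given for that setting, so this count has no background to be read against.

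The members' median of 0.044 was 0.010 with library size alone, 0.022 with limma-voom, 0.027 for genes with at least 1 CPM in 3 libraries, 0.055 without both libraries, and 0.0093 to 0.057 with a library left out. The pro-survival median was 0.066 with library size alone and 0.065 to 0.13 with 1 or both libraries left out, the pro-death median 0.018 to 0.10 and the arrest median -0.32 to 0.094. Counts with a left-out library ran from 2 to 4 for members with an unadjusted p under 0.05, again with no background share for those settings. Bax had a log2 fold change of -0.030 with library size alone, -0.019 without both libraries, and -0.065 to 0.10 with a library left out. Bcl2l11 ran from -0.10 to 0.00098 and Bbc3 from -0.29 without both libraries to 0.78 without wild-type replicate 1. The cause was not tested. Over all tested genes, deviations from the genotype means correlated between same-numbered libraries at -0.02, -0.02 and -0.08. A correlation over all genes cannot exclude pairing by replicate number for single genes. Sesn1 fell from replicate 1 to replicate 3 in both genotypes, and with the replicate block its edgeR adjusted p was 0.0232. RPKM values depend on the exon length used, and with the longest transcript Mdm4 in wild type was 64.6 in place of 31.0 and Bcl2 25.6 in place of 20.1. Genes under about 2 CPM, Bbc3, Pmaip1, Fas, Eda2r, Perp, Plk2 and Phlda3, have intervals too wide to show changes of 1.5-fold.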

Other observations

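Several members overlap genes that were counted separately, and the ones given here were chosen after their values were seen. E230016M11Rik, which shares 337 exon bases with Gadd45a on the opposite strand, measured 1.57, 2.03 and 1.92 CPM in mutant libraries, against 3.03, 2.11 and 2.09 CPM in wild-type libraries, the same direction as Gadd45a (log2 fold change -0.40, edgeR adjusted p = 0.599). Gm3362, a gene within the span of Rrm2b on the same strand, with no exon base shared, measured 142, 123 and 124 CPM in the mutant and 108, 105 and 107 CPM in wild type (log2 fold change 0.28, edgeR adjusted p = 0.175). Rrm2b itself had a log2 fold change of -0.10. Within the span of Sesn1, 9930024M15Rik measured 6.58, 6.87 and 8.04 CPM in the mutant and 7.11, 6.35 and 5.79 CPM in wild type, with overlap and a log2 fold change of 0.16 (edgeR adjusted p = 0.766). Gm37053, within the span of Bcl2 on the same strand, measured 7.61, 8.11 and 9.16 CPM in the mutant and 6.54, 7.45 and 7.35 CPM in wild type, the same direction as Bcl2 (log2 fold change 0.22, edgeR adjusted p = 0.630). Within the span of Etv6, Gm43982 on the same strand measured 61.4, 61.1 and 72.0 CPM in the mutant and 52.5, 55.9 and 46.8 CPM in wild type, opposite to Etv6 and without overlap (log2 fold change 0.33, edgeR adjusted p = 0.218). On the other strand there, Gm17088 and Gm17089 were also higher in every mutant library, with log2 fold changes of 0.50 (edgeR adjusted p = 0.406) and 0.30 (edgeR adjusted p = 0.512).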
